A study of Mus musculus with 4 samples.

Results

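The 9 genes described here encode the elastic fiber of the lung: elastin itself (Eln), the microfibril proteins and their partners fibrillin 1 (Fbn1), Mfap4, Emilin1 and Ltbp4, the fibulins Fbln5 and Fbln1, and the cross-linking enzymes Lox and Loxl1. They were chosen by gene symbol, with earlier results of these data known, from the 32285 genes in the deposited count tables. All 9 had UMIs, the counted single molecules, in all 4 libraries, so the values below describe genes picked for their interest and were not tested. In the lung, elastic fibers let alveolar walls, airways and vessels stretch and recoil. Fibroblasts and smooth muscle cells secrete elastin monomers, which are laid on a fibrillin scaffold with the help of fibulins and latent TGF-beta binding proteins. Lysyl oxidases then cross-link them into an insoluble polymer that turns over very slowly.

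Lung cells were profiled by scRNA-Seq in 4 libraries, each from the left lobes of 3 pooled male wild-type C57BL/6 mice. Food was restricted to 70% of ad libitum, in the aged mice at least: whether this held for the young mice too is not clear from the housing notes. The groups were young nonventilated and young ventilated mice of 2 to 3 months, and aged nonventilated and aged ventilated mice of 22 months. Ventilation lasted 3 hours at 20 mL/kg and 150 breaths per minute, with no end-expiratory pressure and pure oxygen, under ketamine and medetomidine with buprenorphine. Nonventilated mice were naive, so ventilation, anesthesia, analgesia, oxygen and vascular lines cannot be told apart. With 1 pooled library per group there is no replicate: no p-value can be given, and every interval below is a 95% interval for counting error only.

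The libraries held 3400 to 4497 barcodes and 40655452 to 45218176 UMIs. Of 15428 barcodes, 9514 passed the cell filter, and 23 barcode strings occurred in more than 1 library (8 among the cells kept). Cells were grouped into 9 fibroblast, smooth muscle and endothelial classes (4439 cells) by marker lists, without using any elastic fiber gene. A class name stands for clusters like that cell type. Ventilated and nonventilated alveolar fibroblasts, general capillary cells and aerocytes lay in different clusters. The largest ventilated fibroblast cluster was led by Cemip, Tnc and Saa1 and had no alveolar fibroblast marker among its 10 leading genes, and Lox was among those 10. The summed level of the 10 alveolar fibroblast markers in that class was 11236, 4205, 10391 and 5423 CPM (counts per 1000000 UMIs of the class), with every marker detected in each library. Here and throughout, 4 values in a row follow the order young without ventilation, young with it, aged without it and aged with it. Whether the shift in class markers bears on the ratios below was not tested.

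Over the 4 libraries together, fibroblasts held most of the transcripts of 7 of the 9 genes. In that sum fibroblast classes carried 95.04% of the Fbln1 UMIs in kept cells, 91.3% of Lox, 90.7% of Mfap4, 85.1% of Loxl1, 78.8% of Ltbp4, 74.7% of Fbn1 and 68.5% of Emilin1. Eln and Fbln5 were spread more widely. Fibroblasts carried 47.4% of Eln UMIs, smooth muscle and pericytes 25.2% and endothelial cells 22.7%, but the fibroblast share by library was 45.2%, 67.9%, 34.8% and 59.1% and the endothelial share 24.9%, 8.22%, 33.2% and 9.55%. For Fbln5 the fibroblast share was 47.4%, the epithelial share 24.0% and the endothelial share 17.0%. Its epithelial level was 257, 154, 250 and 199 CPM in the 4 libraries. Immune cells, which serve as a measure of free RNA, had Eln at 0.143 to 3.15 CPM.

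**Figure D1:**
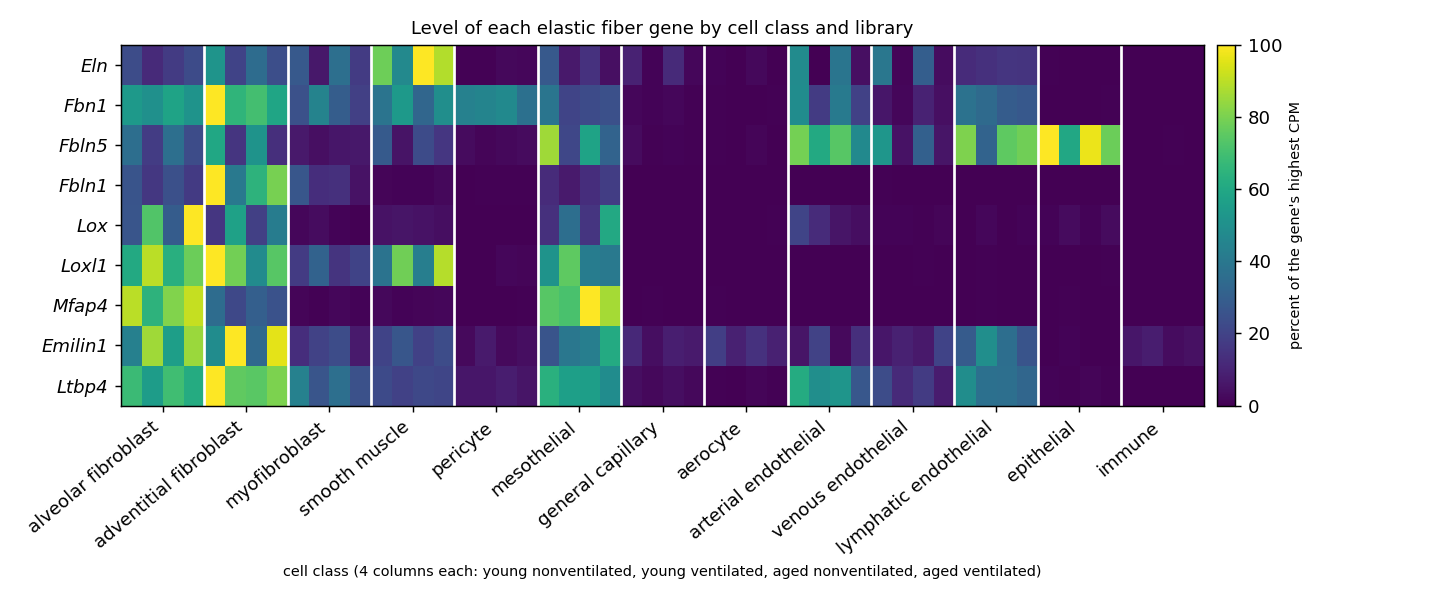
Level of each elastic fiber gene in each cell class (4 columns per class, 1 per library), as a percent of that gene's highest CPM, so that colors compare within a row only. Fbln1 is brightest in adventitial fibroblasts, Mfap4 in alveolar fibroblasts and mesothelial cells, and Lox in alveolar fibroblasts of the ventilated libraries. Loxl1 is bright in alveolar and adventitial fibroblasts and in smooth muscle. Eln is brightest in smooth muscle and dimmer in arterial and venous endothelial cells of the nonventilated libraries.

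Eln was highest in smooth muscle in both nonventilated libraries, at 763 CPM (707 to 822) in young and 977 CPM (901 to 1057) in aged mice. In the young nonventilated library adventitial fibroblasts (506 CPM, 437 to 583), arterial (471 CPM, 370 to 591) and venous endothelial cells (388 CPM, 332 to 450) followed, and the interval of each overlapped the next. Then came myofibroblasts at 274 CPM, alveolar fibroblasts at 226 CPM, lymphatic endothelial cells at 121 CPM, general capillary cells at 92.1 CPM and aerocytes at 8.48 CPM. The adventitial value leaned on 1 cell that held 99 of its 192 UMIs, and without it was 259 CPM. Mesothelial cells had 274 CPM, but this class was shallow (median 1600 to 1785 UMIs per cell by library) and carried alveolar fibroblast markers at 3168 to 11150 CPM, so it is left out of the comparisons. Levels are compared between classes of a gene and never between genes.

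**Figure D2:**
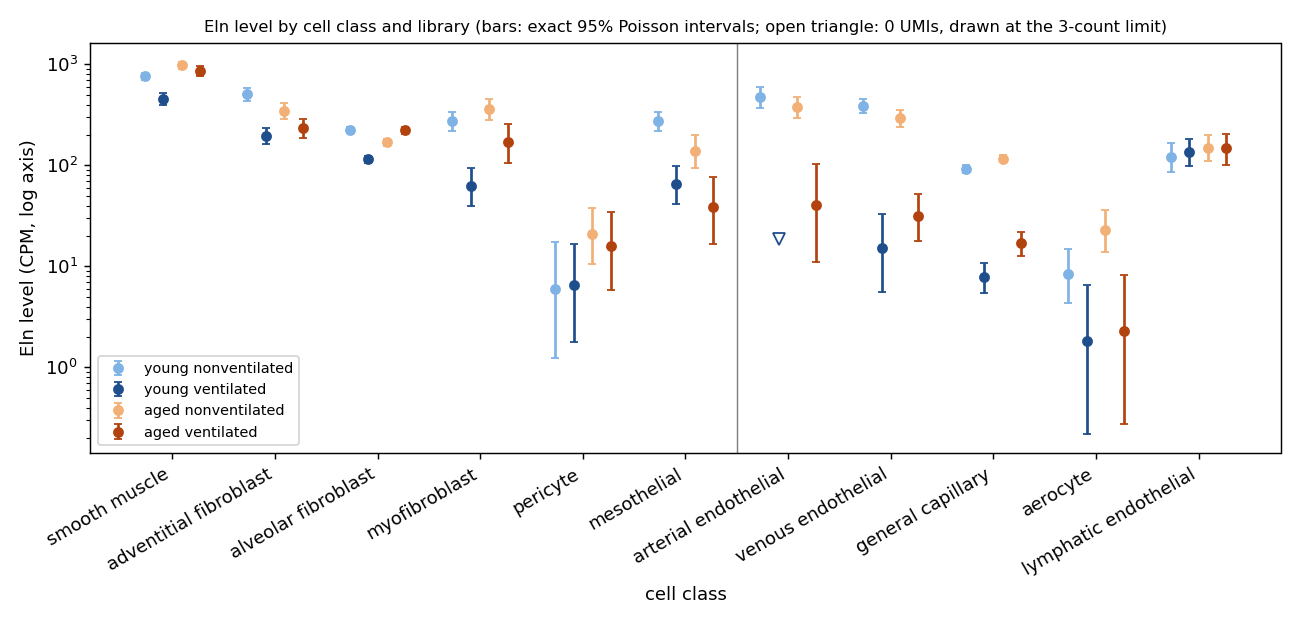
Eln level (CPM, log axis) in each class and library, with exact Poisson intervals. An open triangle marks 0 UMIs and is drawn at the 3-count limit. To the right of the vertical line, the ventilated libraries lie well below the nonventilated ones in arterial, venous and general capillary cells, but not in lymphatic cells.

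In blood vessel endothelium Eln was several-fold lower with ventilation at both ages. General capillary cells, the capillary type with stem-like capacity, had 92.1 CPM (408 UMIs in 570 cells), 7.76 CPM (36 in 610), 117 CPM (519 in 508) and 16.9 CPM (56 in 358). Both ventilated libraries were far below both nonventilated ones: 11.9-fold lower in young mice (8.43 to 17.2) and 6.91-fold lower in aged mice (5.24 to 9.28). In venous cells Eln was 388, 15.05, 292 and 31.8 CPM, which is 25.8-fold (11.6 to 71.2) and 9.17-fold (5.33 to 16.9) lower with ventilation. In arterial cells it was 471, 0, 380 and 40.5 CPM. There the young ventilated library had no UMI in 18 cells, at least 25.1-fold lower when 3 counts are taken as the limit, and the aged ventilated library had 4 UMIs in 8 cells, 9.40-fold lower (3.52 to 35.4). With at most 5% mitochondrial UMIs the young ratios were 0.153 in arterial and 0.0868 in venous cells, still below 1 but nearer to it. The 8 venous markers summed to 8656, 5389, 6542 and 6398 CPM in venous cells, against up to 5176 CPM in another class of the young ventilated library, and the 8 arterial markers to 2538, 994, 2932 and 2216 CPM in arterial cells; their part in the Eln ratios was not tested. Lymphatic endothelial cells had 121, 135, 150 and 147 CPM, with ratios of 1.12 (0.705 to 1.78) and 0.981 (0.606 to 1.57). Aerocytes, the other capillary type, had few Eln UMIs (12, 2, 19 and 2). Of the 45 Eln UMIs in aged nonventilated lymphatic cells, 24 were in 1 cell.

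A smaller share of general capillary and venous cells held any Eln UMI after ventilation. With each cell thinned to 2000 UMIs, the share of general capillary cells with Eln was 14.5%, 1.73%, 17.4% and 2.56%, against 0.150%, 0.133%, 0.342% and 0% of immune cells. Without thinning the general capillary shares were 35.3%, 4.10%, 46.1% and 9.78%, at median depths of 7207, 6690, 7850 and 8471 UMIs per cell; the immune shares were 0.879%, 0.123%, 1.21% and 0.368% at 9379, 6994, 8764 and 8429. In venous cells the thinned share of cells with Eln was 34.8%, 2.70%, 34.8% and 8.51%. The 8 general capillary markers, all detected in each library, summed to 9546, 6424, 9457 and 7747 CPM in that class, lower in the young ventilated library. The 7 pan-endothelial markers were between 6045 and 7173 CPM in general capillary cells, and all 7 were detected in each library. The 7 pan-mesenchymal markers there were between 294 and 326 CPM and the 9 smooth muscle markers between 16.3 and 23.6 CPM, while the 7 immune markers were at 309, 489, 353 and 434 CPM. The part of these markers in the Eln ratios was not tested, and with the immune cell level of Eln subtracted the general capillary ratios were 0.0878 in young and 0.145 in aged mice.

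**Figure D3:**
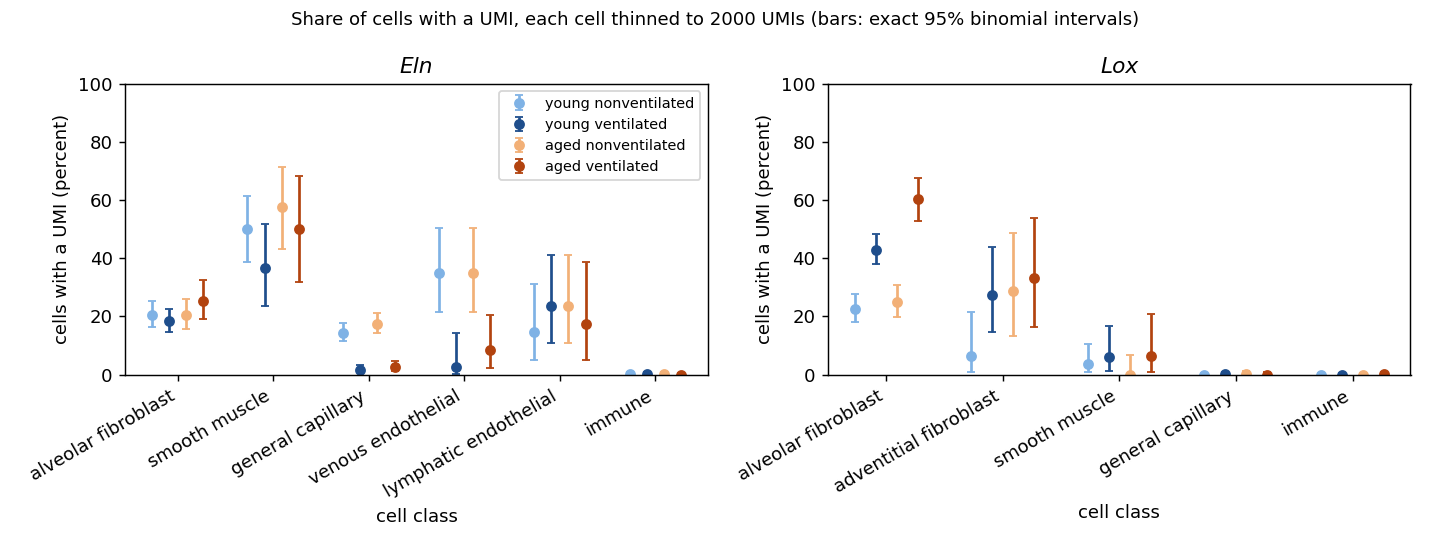
Percent of cells with at least 1 UMI of Eln (left) or Lox (right) by class and library after each cell was thinned to 2000 UMIs, with exact binomial intervals. For Eln the general capillary share is 14.5% and 17.4% in the nonventilated libraries and 1.73% and 2.56% in the ventilated ones; for Lox the alveolar fibroblast share is 22.7% and 25.1% against 43.0% and 60.2%.

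Ltbp4 and Fbln5 were also lower with ventilation in venous cells. Ltbp4, which escorts latent TGF-beta and aids elastin assembly, was at 301, 153, 228 and 97.6 CPM there, 1.97-fold (1.45 to 2.71) and 2.34-fold (1.62 to 3.41) lower, but the aged log2 ratio turned to 0.19 when cells were thinned to 1000 UMIs. Fbln5, which links elastin to cells and microfibrils, was at 135, 12.5, 78.6 and 14.9 CPM, or 10.8-fold lower in young (4.38 to 34.4) and 5.29-fold lower in aged mice (2.29 to 14.2). Emilin1 in venous cells was not lower, with 6, 8, 6 and 21 UMIs and ratios of 1.51 (0.459 to 5.28) and 2.93 (1.14 to 8.87). In all, 3 of 3 members high enough to compare in venous cells were past 1.5-fold lower in young mice. There 44.2% of all genes compared in that class were past 1.5-fold in either direction (784 of 3561 lower). In aged mice 2 of 2, Eln and Ltbp4, were lower, where 37.9% of all genes were past 1.5-fold (732 of 3538 lower). Backgrounds given as a percent count both directions throughout. Comparable here means a mean of at least 50 CPM over both libraries and at least 20 UMIs in 1. In general capillary cells only Eln in aged mice was high enough, and it was lower (background 26.8%). In young mice no member was, Eln having a mean just under that limit (background 37.1%). Arterial Fbn1 was 229, 81.3, 196 and 91.1 CPM, 2.82-fold (1.46 to 5.79) and 2.15-fold (1.02 to 5.06) lower. The arterial ratios were 0.768 and 0.638 for Fbln5, and 0.803 and 0.524 for Ltbp4. In arterial cells 2 of 4 members were past 1.5-fold in young mice, both lower, as were 1141 of 2099 genes in either direction (491 lower). In aged mice it was 3 of 4, all lower, and 872 of 2042 genes (531 lower). Lymphatic Fbln5 was 207, 81.9, 193 and 201 CPM, low in the young ventilated library alone.

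In alveolar fibroblasts Eln was 226, 115, 170 and 223 CPM (1000, 582, 623 and 572 UMIs). The young ventilated library was low and the other 3 were nearer each other. The ratio of ventilated to nonventilated level was 0.508 (0.458 to 0.563) in young and 1.31 (1.17 to 1.47) in aged mice. The young ratio depended on which cells entered the class: with at most 5% mitochondrial UMIs per cell it was 1.13. Clustered more finely, cells with the alveolar fibroblast profile alone had 120, 114, 98.0 and 218 CPM, a young ratio of 0.949 (0.820 to 1.10) and an aged ratio of 2.22 (1.88 to 2.63). Cells between the alveolar and adventitial marker lists had 425, 116, 275 and 242 CPM, with ratios of 0.273 (0.230 to 0.323) and 0.880 (0.723 to 1.07). The aged over young ventilated ratio was alike in both sets, at 1.90 (1.66 to 2.19) and 2.08 (1.66 to 2.60).

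The remaining mesenchymal classes had Eln lowest in the young ventilated library. Smooth muscle had 763, 459, 977 and 866 CPM, a ratio of 0.602 (0.513 to 0.704) in young and 0.886 (0.772 to 1.02) in aged mice; in finer clusters these ratios were 0.284 and 0.507, and with at most 5% mitochondrial UMIs the young one was 0.218. Myofibroblasts had 274, 62.8, 358 and 170 CPM from 93, 23, 69 and 21 UMIs, with ratios of 0.230 (0.139 to 0.366) and 0.475 (0.277 to 0.784). The 9 myofibroblast markers, of which 8 were detected in each library, summed to 11496, 2011, 10553 and 4165 CPM in the same cells. In the young ventilated library they reached 1956 CPM in another class, and their part in the myofibroblast ratios was not tested. Of the myofibroblast Eln UMIs, 28 of 93 in the young nonventilated and 12 of 23 in the young ventilated library were in 1 cell. Adventitial fibroblasts had 506, 196, 346 and 235 CPM, with ratios of 0.387 (0.304 to 0.491) and 0.679 (0.508 to 0.904), and without the cell richest in Eln of each library 0.647 (0.480 to 0.871) and 0.744 (0.525 to 1.05). The aged adventitial ratio was 1.18 with at most 5% mitochondrial UMIs. The 10 adventitial fibroblast markers there summed to 19557, 6608, 13437 and 10205 CPM.

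The cross-linking enzymes were higher with ventilation in the cells that hold most of them. Lox, a secreted amine oxidase, was 147, 408, 163 and 561 CPM in alveolar fibroblasts (652, 2067, 599 and 1440 UMIs). Both ventilated libraries were above both nonventilated ones, by 2.77-fold in young (2.53 to 3.03) and 3.44-fold in aged mice (3.12 to 3.79). Adventitial Lox was 89.7, 321, 105 and 235 CPM, 3.58-fold (2.47 to 5.33) and 2.23-fold (1.49 to 3.40) higher. The thinned share of alveolar fibroblasts with a Lox UMI was 22.7%, 43.0%, 25.1% and 60.2%, against 0% to 0.253% of immune cells. In smooth muscle Lox was low, at 26.6, 30.9, 26.9 and 21.7 CPM, and the intervals of its ratios included 1.

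Loxl1, the lysyl oxidase that binds Fbln5, differed between classes. In smooth muscle it was 169, 347, 190 and 393 CPM, 2.06-fold (1.64 to 2.59) higher with ventilation in young and 2.07-fold (1.61 to 2.66) in aged mice. In alveolar fibroblasts it was 270, 397, 279 and 344 CPM, with ratios of 1.47 (1.37 to 1.58) and 1.23 (1.13 to 1.35). Clustered more finely, cells of the alveolar profile alone had ratios of 1.84 (1.68 to 2.02) and 1.46 (1.30 to 1.64). Cells between the alveolar and adventitial lists had 0.982 (0.869 to 1.11) and 1.01 (0.856 to 1.19). In adventitial fibroblasts it was 443, 349, 213 and 328 CPM, with ratios of 0.787 (0.638 to 0.972) and 1.54 (1.14 to 2.09); there the aged nonventilated library was the low one. The aged adventitial ratio ran from 1.06 to 6.74 over the processing alternatives.

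Emilin1, a glycoprotein at the elastin and microfibril interface, was higher in both ventilated libraries of alveolar and adventitial fibroblasts. In alveolar fibroblasts it was 97.2, 190, 124.7 and 188 CPM, 1.957-fold (1.75 to 2.20) and 1.51-fold (1.33 to 1.72) higher. In adventitial fibroblasts it was 108, 222, 75.1 and 213 CPM, 2.05-fold (1.44 to 3.00) and 2.84-fold (1.79 to 4.64) higher. Myofibroblasts had 10, 16, 10 and 2 Emilin1 UMIs, with ratios of 1.49 (0.634 to 3.66) and 0.312 (0.0332 to 1.46). In general capillary cells it was instead 25.3, 8.41, 18.2 and 15.7 CPM, 3.01-fold lower (2.07 to 4.45) in young mice, with an aged ratio of 0.861 (0.596 to 1.23). These values were below the 50 CPM limit for comparison. Over the libraries together immune cells held 9.36% of Emilin1 UMIs and general capillary cells 7.34%. In the young ventilated library general capillary cells had 39 Emilin1 UMIs among 4637917, and immune cells 125 among 6971802. Whether free RNA bears on these values was not tested.

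The fibulins were lower with ventilation in most fibroblast comparisons. Fbln5 was 92.5, 45.2, 93.7 and 60.0 CPM in alveolar fibroblasts, 2.05-fold (1.74 to 2.42) and 1.56-fold (1.29 to 1.90) lower. The aged Fbln5 ratio there was 0.724 (0.563 to 0.928) in finer clusters and 1.49 with each cell thinned to 1000 UMIs. In adventitial fibroblasts it was 153, 39.9, 132 and 34.7 CPM, 3.83-fold (2.33 to 6.51) and 3.81-fold (2.02 to 7.72) lower. Fbln1, which binds elastin and fibronectin, was 213, 134, 200 and 140 CPM in alveolar fibroblasts, with ratios of 0.629 (0.569 to 0.695) and 0.701 (0.616 to 0.796). Its young ratio passed above 1 when at most 5% mitochondrial UMIs were allowed or clusters were coarser. In finer clusters of the alveolar profile alone the Fbln1 ratios were 0.780 (0.664 to 0.916) and 1.01 (0.834 to 1.22). In cells between the marker lists they were 0.599 (0.525 to 0.681) and 0.745 (0.617 to 0.896). In adventitial fibroblasts Fbln1 was 820, 332, 532 and 653 CPM, 2.47-fold lower in young mice (2.06 to 2.98) and 1.23-fold higher in aged mice (1.01 to 1.50). Without the cell richest in Fbln1 of each library the aged ratio was 1.17 (0.944 to 1.44), and with coarser clusters the young ratio was 0.673. Over the processing alternatives the aged adventitial Fbln1 ratio ran from 0.855 to 1.81. Adventitial values rest on 27 to 40 cells per library. Clustered at resolution 0.8, the adventitial class also took in the cells between the marker lists, in clusters of 193 and 134 beside 127. In that wider class the Fbln5 ratios were 0.410 and 0.500, and the aged Emilin1 ratio 1.68.

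The microfibril gene Fbn1, the backbone of these fibrils, was 255, 236, 274 and 242 CPM in alveolar fibroblasts, with ratios of 0.926 (0.853 to 1.01) and 0.885 (0.7997 to 0.979). Ltbp4 there was 889, 721, 901 and 799 CPM, with ratios of 0.811 (0.776 to 0.849) and 0.886 (0.838 to 0.936). Mfap4, a microfibril protein that binds elastin and fibrillin, was 2413, 1744, 2184 and 2459 CPM, with ratios of 0.723 (0.703 to 0.744) and 1.13 (1.09 to 1.16), the aged one 0.924 to 1.17 over the processing alternatives. Outside that class Fbn1 went both ways: smooth muscle had 182, 256, 157 and 233 CPM (ratios 1.41, 1.10 to 1.80, and 1.49, 1.10 to 2.01), while adventitial fibroblasts had 472, 309, 331 and 277 CPM (0.655, 0.529 to 0.810, and 0.839, 0.635 to 1.11).

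**Figure D4:**
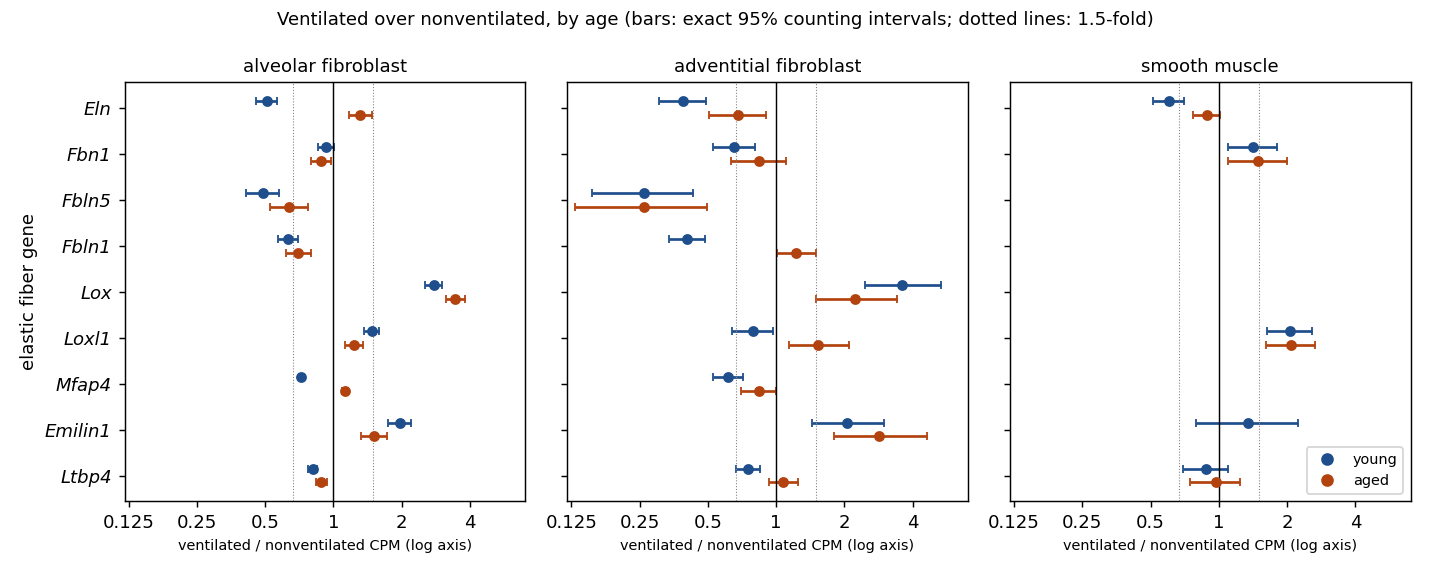
Ratio of ventilated to nonventilated CPM (log axis) of each gene in 3 mesenchymal classes, young in blue and aged in orange, with exact counting intervals. Genes too low to compare are not drawn. Lox and Emilin1 lie right of 1 in both fibroblast panels at both ages, Fbln5 lies left of 1, and Eln in alveolar fibroblasts lies on opposite sides at the 2 ages (0.508 and 1.31).

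Counted over the 9 classes, 26 of 40 gene and class pairs high enough to compare were past 1.5-fold in young mice, 8 higher and 18 lower with ventilation. Of all pairs of genes and classes compared, 44.7% were past 1.5-fold. In aged mice 16 of 38 were, 6 higher and 10 lower, with a background of 35.0%. In alveolar fibroblasts it was 5 of 9 genes in young mice (2 higher, 3 lower, median log2 ratio -0.30, background 41.8% and median 0.03) and 3 of 9 in aged mice (2 higher, 1 lower, median 0.17, background 26.7%). In adventitial fibroblasts it was 7 of 9 (2 higher, 5 lower, background 58.7%) and 4 of 9 (3 higher, 1 lower, background 46.5%). In smooth muscle it was 2 of 5, Loxl1 higher and Eln lower (background 32.6%), and 1 of 4, Loxl1 (background 29.6%). The members were chosen with these ratios known and the classes share libraries, so nothing is read from these counts against the background.

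Without ventilation, few of these genes differed by age past 1.5-fold. None of the 9 was past 1.5-fold in alveolar fibroblasts (background 2.7%), where the lowest ratio was that of Eln, 0.750 (0.678 to 0.830), and the highest that of Emilin1, 1.28 (1.12 to 1.47). In finer clusters Eln was at 0.646 (0.569 to 0.732) in the cells between the marker lists, past 1.5-fold lower. In cells of the alveolar profile alone Eln was at 0.814 (0.683 to 0.968). Over the 9 classes 5 of 42 pairs were past 1.5-fold, all 5 lower in aged mice (background 17.6%). Adventitial fibroblasts had 2 of 9 (background 27.6%): Loxl1, at a ratio of 0.481 (0.360 to 0.639), and Fbln1, at 0.648 (0.536 to 0.782). With the cells between the marker lists added to the class, at resolution 0.8, the Loxl1 ratio was 0.881. Smooth muscle had 1 of 6, Mfap4, at 0.637 (0.381 to 1.04), an interval that includes 1 (background 11.4%). Myofibroblast Fbln1 (0.517, 0.306 to 0.840) and venous Fbln5 (0.582, 0.365 to 0.910) were the others. Eln was somewhat higher in aged smooth muscle (1.28, 1.15 to 1.43) and general capillary cells (1.27, 1.11 to 1.45), but the smooth muscle ratio was 0.488 with at most 5% mitochondrial UMIs.

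With ventilation, the counting interval of the aged over young Eln ratio lay above 1 in 4 classes: alveolar fibroblasts at 1.94-fold (1.72 to 2.18), smooth muscle at 1.89-fold (1.58 to 2.26), myofibroblasts at 2.70-fold (1.42 to 5.11) and general capillary cells at 2.18-fold (1.41 to 3.41), the last 2 from few UMIs. The interval included 1 elsewhere: the ratio was 1.20 (0.895 to 1.59) in adventitial fibroblasts, 2.11 (0.775 to 6.65) in venous and 1.09 (0.669 to 1.75) in lymphatic cells. Arterial cells had 4 aged UMIs against none. Over the 9 classes 10 of 35 pairs were past 1.5-fold, 5 higher and 5 lower in aged mice (background 24.6%). Alveolar fibroblasts had 1 of 9, Eln (background 14.5%), smooth muscle 1 of 5, Eln (background 27.5%), and adventitial fibroblasts 1 of 8, Fbln1, at 1.97-fold (1.62 to 2.39; background 29.8%). The age and ventilation ratios share libraries and are not independent of each other.

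**Figure D5:**
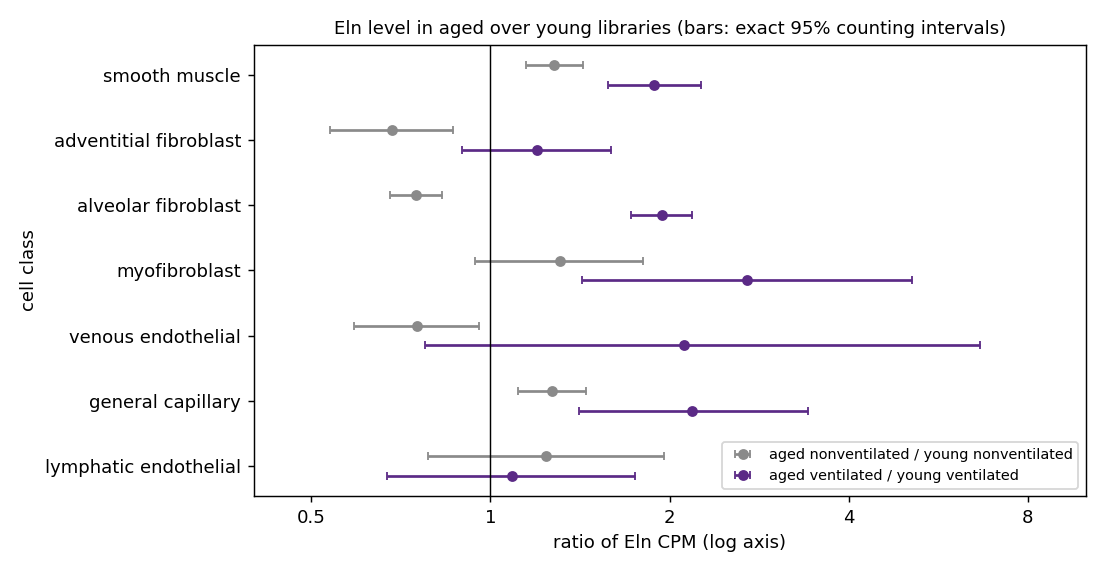
Ratio of Eln CPM in aged over young libraries (log axis) for 7 classes, without ventilation in grey and with ventilation in purple, with exact counting intervals. The purple points for alveolar fibroblasts, smooth muscle, myofibroblasts and general capillary cells lie right of 1, between 1.89 and 2.70, while the grey points lie between 0.682 and 1.31.

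A list of 22 other elastic fiber and microfibril genes was read beside the members. Over the 9 classes 37 of 53 comparable pairs were past 1.5-fold with ventilation in young mice (5 higher, 32 lower; background over all genes 44.7%) and 31 of 48 in aged mice (6 higher, 25 lower; background 35.0%). Without ventilation 15 of 55 differed by age (6 higher, 9 lower in aged mice; background 17.6%), and with it 17 of 40 (11 higher, 6 lower; background 24.6%). Pairs of 1 gene in several classes share libraries, and nothing is read from these counts against the background.

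Hmcn1, a large fibulin-family protein, stood out in general capillary cells at 1469, 124, 1277 and 231 CPM, with ratios of 0.0845 (0.0775 to 0.0921) and 0.181 (0.168 to 0.195). It was also low with ventilation in venous cells (933, 145, 1192 and 185 CPM) and alveolar fibroblasts (330, 90.2, 261 and 79.8 CPM). The microfibril gene Mfap2 in general capillary cells was 88.5, 19.2, 84.5 and 55.9 CPM, and Mmrn2, an endothelial relative of Emilin1, was 124, 59.9, 130 and 70.4 CPM. Mfap5, a microfibril partner of fibrillin, was 328, 106, 268 and 138 CPM in alveolar fibroblasts.

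Ltbp1, which tethers latent TGF-beta to microfibrils, took opposite directions by class. In alveolar fibroblasts it was 456, 943, 546 and 661 CPM, 2.07-fold higher in young mice (1.962 to 2.18), and in adventitial fibroblasts 235, 469, 201 and 392 CPM. In smooth muscle it was 449, 183, 489 and 247 CPM, with ratios of 0.408 (0.318 to 0.518) and 0.505 (0.395 to 0.640). In myofibroblasts it was 150.1, 396, 404 and 129 CPM, 2.64-fold higher in young (1.91 to 3.71) and 3.12-fold lower in aged mice (1.81 to 5.73). Loxl2, another lysyl oxidase, was 2.36-fold higher with ventilation in young smooth muscle (1.50 to 3.73). With ventilation it was 54.3 CPM in aged and 99.4 CPM in young smooth muscle, a ratio of 0.546 (0.306 to 0.944). In aged smooth muscle 0 of the 8 comparable genes of this list were past 1.5-fold higher with ventilation. Adamtsl2, a fibrillin-binding protein, was higher in the aged ventilated alveolar fibroblasts alone: 104, 104, 95.8 and 164 CPM.

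The genes whose levels were most like those of each member over 52 points (13 cell classes in 4 libraries, on the log2(CPM + 1) scale, 9057 genes) were named by Pearson's r, as a description. Eln was most like Fkbp10 (0.81), Nfix (0.80) and Ltbp4 (0.80), and Fbn1 was most like Lama4 (0.92), Selenom and Ltbp4 (both 0.91). Loxl1 was most like Sod3 (0.96), Fbln1 most like Mfap5 (0.95), Mfap4 most like Smim41 (0.94), Emilin1 most like Colec12 (0.81), Lox most like Mgp (0.81) and Fbln5 most like Limch1 (0.77). Between Eln and Lox r was 0.41. The points share libraries, depth and free RNA.

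Summed over every barcode, without any cell classes, Eln was 124.98, 38.2, 102 and 66.0 CPM and Lox 33.3, 94.7, 37.8 and 99.7 CPM. Both ventilated libraries were below both nonventilated ones for Eln and above them for Lox. In these sums a smaller share of a cell type and less RNA per cell cannot be told apart. On mouse GRCm38 the protein-coding genes lie at chr5:134702593-134747323 (Eln, minus strand), chr2:125300594-125507993 (Fbn1, minus), chr12:101746565-101819055 (Fbln5, minus), chr15:85205949-85286535 (Fbln1, plus), chr9:58287738-58313186 (Loxl1, minus), chr11:61485431-61488900 (Mfap4, plus), chr5:30913402-30921277 (Emilin1, plus) and chr7:27305136-27337692 (Ltbp4, minus). No other gene of the count tables overlaps these 8 on the same strand.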

How the data were processed

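The authors aligned reads with Cell Ranger 7.0.0 to mm10 and deposited raw UMI counts per gene and barcode, not normalized; 3 mice were pooled per library. Limits on cells came from the study's methods: between 200 and 5000 genes, no more than 10% of UMIs mitochondrial, and a UMI total within the 93rd percentile (21021). These limits left fewer cells (9514) than the study gives, a difference that was not traced. Clusters were made with R 4.3.3 and Seurat 5.3.0 (2000 variable genes without elastic fiber genes, 37 components, resolution 0.18; mesenchymal and endothelial clusters again with 20 components at 0.4). They were named by marker lists, under a naming rule set after the clusters were seen. No doublet caller was run; 626 cells carried UMIs marking another class and were left out in 1 alternative.

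UMIs were summed per library and class (98838 to 5067592 UMIs in the 9 classes) and scaled to CPM, with exact Poisson intervals; ratios of CPM have conditional exact binomial intervals, and shares of cells have Clopper-Pearson intervals (scipy 1.17.1). Log2 ratios had 1 UMI added. Fold changes past 1.5 were counted where a gene averaged 50 CPM or more over both libraries and had 20 UMIs in 1. A count of 0 was read as at most 3 counts in its library. On counts simulated for alveolar fibroblasts, 94.9% of intervals held the true ratio over 3514 genes, and 0% of unchanged genes passed 1.5-fold. For the smaller venous class 6.02% of unchanged and 95.5% of changed genes did (3574 genes, 96.3% of intervals). These counts were drawn from the Poisson model that the intervals assume, with no spread between cells or mice. They check the calculation only, and cannot show how often real libraries differ past 1.5-fold. The design fitted no model, since each group is 1 library. The members and lists were chosen with earlier results of these data known. All 9 members are named. Of the 22 other genes, at most 5 per class and comparison were listed, largest first, if past 1.5-fold with an interval leaving out 1. The text prints only part of that list and also some values outside it, so the largest ratios of these genes are not all shown. The 3 genes of highest r were listed for each member, and for some members fewer are printed.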

Additional observations from a re-analysis of the deposited data

Results flagged for a closer look

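In 4 cases the ventilated over nonventilated ratio lay on opposite sides of 1 at the 2 ages, with both counting intervals leaving out 1. With 1 library per group these differences between ages were not tested. The aged ratio divided by the young ratio was 2.58 for Eln in alveolar fibroblasts (1.80 to 2.62 over the processing alternatives), 1.56 for Mfap4 in alveolar fibroblasts (1.41 to 1.79), 3.04 for Fbln1 in adventitial fibroblasts (1.73 to 3.21) and 1.95 for Loxl1 in adventitial fibroblasts (1.09 to 7.16). The opposite sides depended on the processing: the young alveolar Eln ratio was 1.13 with at most 5% mitochondrial UMIs and 0.949 (0.820 to 1.10) in finer clusters, the aged Mfap4 ratio ran from 0.924 to 1.17, and the aged Loxl1 ratio from 1.06 to 6.74. For Fbln1 the aged ratio ran from 0.855 to 1.81, and its interval included 1 without the cell richest in Fbln1 of each library (1.17, 0.944 to 1.44).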

How the results depend on the processing

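The 57 log2 ratios past 1.5-fold were recomputed under 14 alternatives, 2 of them chosen after the data were seen (the finer clusters without those between lists, and the classes without the richest cell). Of these, 2 (a lower limit on expression and a higher fold) change only which values are counted. Under the other 12, of 684 values 594 stayed within the counting interval, 82 left it with the same sign and 8 changed sign. With at most 5% mitochondrial UMIs, the young alveolar fibroblast log2 ratio became 0.17 for Eln and 0.50 for Fbln1, and with clusters at resolution 0.2 it was 0.23 for Fbln1. After thinning every cell to 1000 UMIs, the aged ventilation log2 ratio became 0.57 for alveolar Fbln5, 0.49 for myofibroblast Fbln1 and 0.19 for venous Ltbp4, the nonventilated age ratio 0.016 for adventitial Fbln1, and the ventilated age ratio 0.87 for myofibroblast Fbln1. The cause was not tested, but thinning leaves fewer UMIs.

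Counts past 1.5-fold with thinning were 12 in place of 26 (young ventilation), 2 in place of 16 (aged ventilation) and 3 in place of 10 (age with ventilation). Past 2-fold they were 15, 4 and, for age without ventilation, 1. That last count of 5 was 9 with no upper limit on UMIs, 3 at resolution 0.8 and 3 without the richest cell. The share over all genes was not worked out under these settings, so nothing is read from these counts. Over the alternatives the Eln ratio in general capillary cells was 0.058 to 0.105 in young and 0.106 to 0.162 in aged mice, and the alveolar Lox ratio 2.47 to 3.18 and 3.07 to 3.86. No paired analysis was possible because each group is 1 pooled library. Small classes (8 to 47 arterial, venous and adventitial cells a library) limit what these counts can resolve.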
